A study of Mus musculus with 8 samples.

Results

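The Tex (testis-expressed) genes of the mouse were named for where their transcripts were found, not for what their proteins do. The set described here holds the 32 protein-coding genes, of 21900 in the RefSeq annotation, whose symbol is Tex followed by a number, leaving out Tex11 and Tex12. The histone variant H2A.Z had been mapped by ChIP-seq (sequencing of DNA that an antibody brings down) in cells of mouse testes taken at postnatal day 14. The 8 libraries formed 4 groups with 2 replicates each, an H2A.Z immunoprecipitate and an input from Znhit1-CKO mice and the same pair from control mice. The protocol calls the mutant Znhit1-sKO. Which Cre drove the deletion, what alleles control mice carried and whether animals were pooled is unstated in the labels. The files held 1 list of 31156 H2A.Z peaks for Znhit1-CKO, 1 list of 48752 peaks for control and 1 list of 24367 differential regions between the genotypes, each as coordinates alone. No read count, height, fold or p-value came with a region, so depth is unknown, no value here has a replicate error and no difference between the peak lists could be tested.

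H2A.Z is placed into chromatin by the SRCAP complex, of which ZNHIT1 is a subunit, and it typically marks the nucleosomes that flank active or poised transcription starts. At postnatal day 14 the first wave of spermatogenesis has brought germ cells into meiotic prophase, before round spermatids have formed. Some Tex genes act in that phase, such as Tex14 and Tex15, others serve sperm, such as Tex101, and a few, such as Tex2 and Tex264, are active in most tissues.

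A gene end was counted as carrying H2A.Z where a peak lay within 1 kb of either end of the gene model, and such a peak is called a boundary peak. A gene with a control boundary peak was called lost where no Znhit1-CKO peak lay within 1 kb of its ends, and kept otherwise. Of the 32 Tex genes, 12 had a Znhit1-CKO boundary peak and 18 a control boundary peak. Over all protein-coding genes the shares were 60.4% in Znhit1-CKO and 67.6% in control, and the Tex share in control was 56.2%. The peak was kept at Tex2, Tex10, Tex14, Tex15, Tex19.2, Tex22, Tex26, Tex30, Tex33, Tex45, Tex261 and Tex264. It was lost at Tex19.1, Tex37, Tex43, Tex44, Tex46 and Tex101, which is 6 of 18 (33.3%), against 11.5% of the genes with such a peak in the whole annotation. None of the 14 Tex genes with no control boundary peak had a Znhit1-CKO one, where 1.74% of all such genes did. These shares count genes in 1 list per genotype, which are not replicates, so the gap between them has no error. In whole testis cells, fewer cells with H2A.Z at a site and less H2A.Z per cell cannot be told apart, and the cell make-up of the testes was not tested.

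The authors' differential regions, their calls of a difference between the genotypes, touched the ends of 11 of the 18 genes (61.1%), against 62.8% over the whole annotation among genes that had a control boundary peak. All 6 lost Tex genes had one, where 58.6% of all lost genes did. Of the 12 kept Tex genes, 5 had one (Tex10, Tex19.2, Tex22, Tex30 and Tex264), where 63.4% of all kept genes did. No Tex gene without a control boundary peak had one, as for nearly all such genes (0.169% had a region). Regions carry no sign, so those at kept genes have no stated direction. Each region at a Tex gene was 400 bp wide, which is also the median of the whole list. Their edges and centres therefore do not measure the extent of a change.

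**Figure D1:**
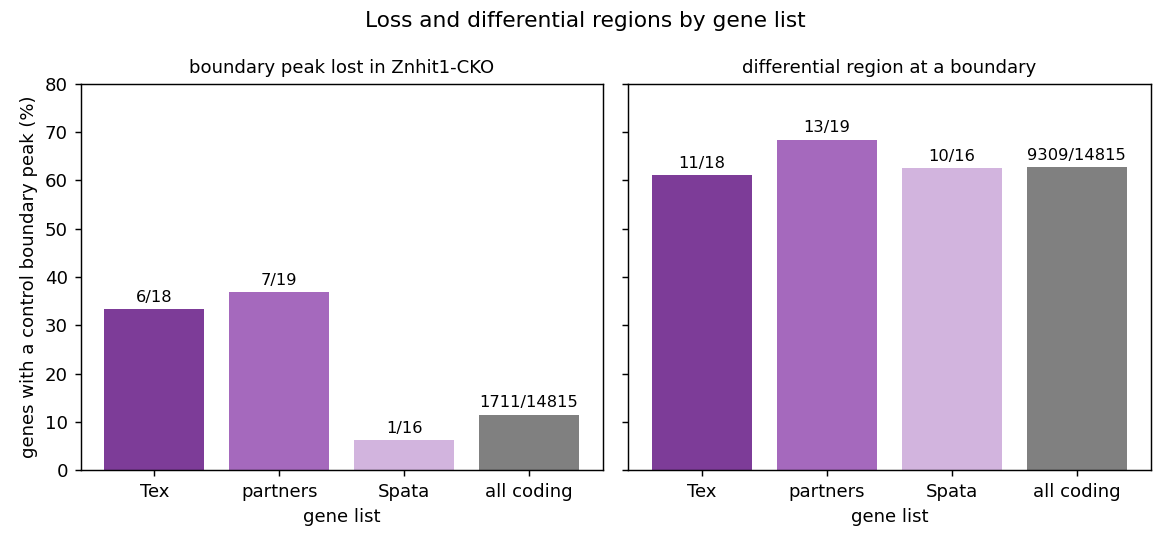
Share of genes with a control boundary peak that had no Znhit1-CKO boundary peak (left) and that had a differential region at a boundary (right), in percent of genes on the vertical axis, for the Tex genes, a list of partners of Tex proteins, the Spata genes and all protein-coding genes, with the counts above each bar. Loss was called at 6 of 18 Tex genes against 11.5% of all genes, while the shares with a differential region were 61.1% and 62.8%.

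Promoter sequences of 7 genes are printed because each stands for one outcome. Tex19.1 and Tex101 lost a peak over the transcription start, Tex19.2, Tex14 and Tex2 kept one, Tex9 had one in both lists that the gene model had hidden, and Tex37 had none over its start. Each runs 5′ to 3′ from 250 bases before the RefSeq start to 50 bases from it onward, on GRCm38.p6 (the primary assembly of mm10), and capitals mark CpG dinucleotides.
Tex19.1, chr11:121145893-121146192, plus strand: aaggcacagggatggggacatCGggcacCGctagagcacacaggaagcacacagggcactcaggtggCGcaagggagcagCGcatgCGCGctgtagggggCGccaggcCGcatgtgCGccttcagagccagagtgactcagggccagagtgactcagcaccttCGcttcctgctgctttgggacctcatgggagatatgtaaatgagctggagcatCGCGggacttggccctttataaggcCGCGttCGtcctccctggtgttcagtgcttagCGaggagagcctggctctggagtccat
Tex101, chr7:24672001-24672300, minus strand: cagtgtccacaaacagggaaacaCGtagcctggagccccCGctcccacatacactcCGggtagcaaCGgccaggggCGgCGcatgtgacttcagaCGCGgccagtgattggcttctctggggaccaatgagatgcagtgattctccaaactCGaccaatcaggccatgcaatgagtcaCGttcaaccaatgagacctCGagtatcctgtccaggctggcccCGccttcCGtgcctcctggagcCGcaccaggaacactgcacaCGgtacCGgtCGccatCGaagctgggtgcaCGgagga
Tex19.2, chr11:121118628-121118927, minus strand: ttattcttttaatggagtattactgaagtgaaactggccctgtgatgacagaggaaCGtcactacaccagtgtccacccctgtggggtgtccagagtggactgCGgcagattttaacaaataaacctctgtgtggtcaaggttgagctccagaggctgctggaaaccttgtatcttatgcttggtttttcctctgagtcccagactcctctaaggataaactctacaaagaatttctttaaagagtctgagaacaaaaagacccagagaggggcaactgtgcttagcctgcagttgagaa
Tex14, chr11:87404815-87405114, plus strand: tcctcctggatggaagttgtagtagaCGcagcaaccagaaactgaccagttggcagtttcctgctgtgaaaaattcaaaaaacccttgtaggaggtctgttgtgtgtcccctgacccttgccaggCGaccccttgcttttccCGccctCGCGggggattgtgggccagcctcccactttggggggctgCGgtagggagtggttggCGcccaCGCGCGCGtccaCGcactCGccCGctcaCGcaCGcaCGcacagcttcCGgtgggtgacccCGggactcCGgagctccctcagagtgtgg
Tex2, chr11:106612881-106613180, minus strand: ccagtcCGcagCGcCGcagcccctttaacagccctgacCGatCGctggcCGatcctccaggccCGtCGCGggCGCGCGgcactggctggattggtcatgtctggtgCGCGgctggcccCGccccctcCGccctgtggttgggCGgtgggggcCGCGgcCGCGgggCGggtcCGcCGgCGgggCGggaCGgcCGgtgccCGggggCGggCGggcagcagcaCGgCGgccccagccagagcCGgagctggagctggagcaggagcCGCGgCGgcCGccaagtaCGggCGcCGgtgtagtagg
Tex9, chr9:72491910-72492209, minus strand: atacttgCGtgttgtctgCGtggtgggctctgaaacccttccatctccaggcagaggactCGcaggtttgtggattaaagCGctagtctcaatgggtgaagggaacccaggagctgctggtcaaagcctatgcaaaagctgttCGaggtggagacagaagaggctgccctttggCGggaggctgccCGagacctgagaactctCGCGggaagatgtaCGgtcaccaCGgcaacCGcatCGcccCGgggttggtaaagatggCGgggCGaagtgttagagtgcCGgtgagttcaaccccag
Tex37, chr6:70918873-70919172, minus strand: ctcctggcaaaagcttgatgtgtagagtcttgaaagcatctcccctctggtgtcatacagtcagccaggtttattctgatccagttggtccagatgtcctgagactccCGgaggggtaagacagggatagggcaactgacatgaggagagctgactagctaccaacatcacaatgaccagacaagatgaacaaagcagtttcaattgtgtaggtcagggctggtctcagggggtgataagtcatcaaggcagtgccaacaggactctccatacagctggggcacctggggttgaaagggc

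The germ-cell genes with a meiotic role came out unequal. Tex19.1 (gene ID 73679), which restrains retrotransposons in germ cells and placenta and is needed in meiosis, had no Znhit1-CKO peak nearer than 8073 bp, against a control peak of 837 bp at chr11:121145573-121146409. That control peak ran from -570 to 266 bp relative to the 5′ end of the gene and carried a differential region from -381 to 18 bp. Tex19.2, its paralogue 27465 bp away on the same chromosome, kept its peak, 1382 bp wide in Znhit1-CKO and 1467 bp in control. Tex19.2 also had a differential region, from 151 to 550 bp. The neighbouring paralogues therefore differed in whether a peak was called again, and both were called differential.

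Tex14 encodes a component of the intercellular bridges that join germ cells of one clone, and it kept a peak with no differential region. The peak was 1304 bp wide in Znhit1-CKO, from -986 to 317 bp, and 1449 bp in control, from -1030 to 418 bp. It lay also within 1 kb of an end of Rad51c, a gene of homologous recombination, so it cannot be assigned to Tex14 alone. Tex15, which is needed for meiotic recombination and for transposon silencing guided by piRNAs, kept a peak of 1051 bp in Znhit1-CKO (chr8:33516925-33517975), against 1781 bp in control (chr8:33516183-33517963). The right edges of the Tex15 peak nearly coincided, the difference in width lay at the left edge, and no differential region was called.

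**Figure D2:**
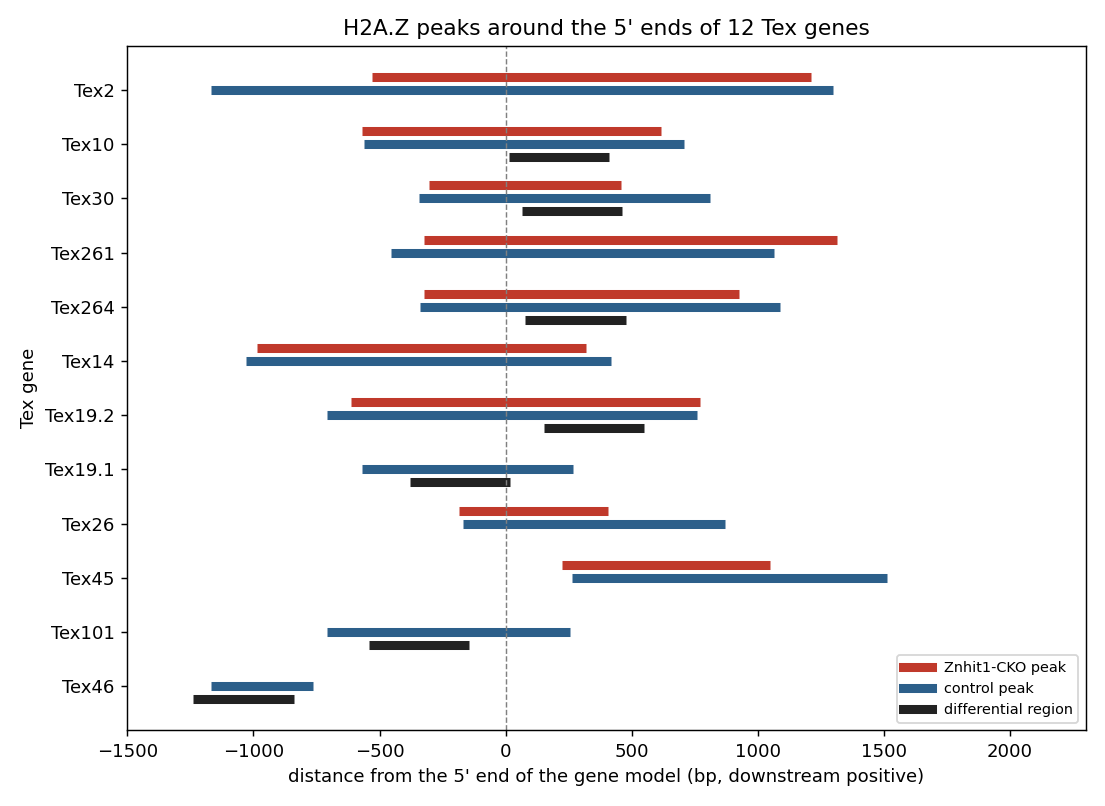
Position of Znhit1-CKO peaks (red), control peaks (blue) and differential regions (black) around the 5′ ends of the 12 Tex genes with known strand and a control peak there, as distance from the 5′ end of the gene model in bp. Tex19.1, Tex101 and Tex46 have no red bar, and their black bars are centred upstream of the 5′ end of the gene model, where those of Tex10, Tex19.2, Tex30 and Tex264 are centred downstream.

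The Tex genes that are active in most tissues kept their peaks wherever they had one. Tex2, which encodes a lipid-transfer protein of the endoplasmic reticulum, had the widest Tex peak of either list, 1743 bp in Znhit1-CKO and 2469 bp in control. Its upstream edge lay at -530 bp in Znhit1-CKO against -1169 bp in control, and no differential region was called. Tex2 also kept a peak near its other end, 509 bp in Znhit1-CKO and 686 bp in control, which lay within 1 kb of the small nucleolar RNA gene Snord104 and other noncoding genes. Tex10 encodes a subunit of a complex for ribosome maturation, and its peak was 1186 bp wide in Znhit1-CKO and 1269 bp in control. Tex264, an endoplasmic reticulum receptor for autophagy, had 1247 bp in Znhit1-CKO and 1429 bp in control. Both of these had a differential region just downstream of the start, from 13 to 412 bp and from 77 to 476 bp.

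Tex30, whose function is not stated here, had the strongest narrowing of the broadly expressed genes, to 762 bp in Znhit1-CKO against 1154 bp in control, a log2 width ratio of -0.60. Its downstream edge lay at 457 bp in Znhit1-CKO and 809 bp in control, while the upstream edges were 40 bp apart. Tex261, a membrane protein of transport out of the endoplasmic reticulum, was the only kept Tex gene with the wider peak in Znhit1-CKO, 1639 bp against 1517 bp in control, and it had no differential region. Tex9 was counted as having no boundary peak, because its gene model reaches far upstream of its RefSeq promoter. Over that promoter lay a peak of 1310 bp in Znhit1-CKO (chr9:72491288-72492597) and of 1498 bp in control (chr9:72491174-72492671), with a differential region. All 6 broadly expressed Tex genes thus had a peak at a transcription start in both lists.

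Genes of spermatids and sperm held 5 of the 6 losses, among 9 such genes with a control boundary peak (55.6%, against 11.5% of all genes with one). The role groups were drawn up with earlier results of these data known. The 5 lost control peaks of this group were 406 to 962 bp wide, and of all genes with control peaks of at most 1000 bp 43.7% were lost. Only Tex101 among the 5 was lost at a RefSeq transcription start, with no entry for Tex43. Tex101 (gene ID 56746), a germ-cell surface protein needed for sperm to pass into the oviduct, had no Znhit1-CKO peak nearer than 29038 bp. Its control peak was 962 bp wide (chr7:24671796-24672757), the widest among the lost Tex peaks, and spanned the start from -707 to 254 bp with a differential region from -543 to -144 bp. At Tex46 (gene ID 67663) the control peak was only 406 bp wide and lay from -1169 to -764 bp, and the RefSeq transcription start lies 4110 bp from it. This loss concerns an upstream site and not the annotated start.

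The other losses were near the far end of the gene, or at an end whose strand was not known. Tex37 (gene ID 74221) had a control peak of 751 bp over its downstream end and another of 902 bp inside the gene model (chr6:70921071-70921972), each with a differential region. The inner peak lay 2149 bp upstream of the RefSeq transcription start, because the gene model reaches beyond that start. No Znhit1-CKO peak lay within 61582 bp of an end of Tex37 or inside it. Tex44 (gene ID 71863) had a control peak of 580 bp that ended 129 bp short of its downstream end, and Tex43 (gene ID 67343) one of 611 bp over an end. The nearest Znhit1-CKO peaks lay 3272 bp and 13865 bp away from the ends of Tex44 and Tex43. The 5′ ends of Tex37 and Tex44 had no peak within 1 kb in either list, though the Tex44 control peak began 1012 bp downstream of the start of that short gene.

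The 4 sperm genes that kept a peak were Tex22, Tex26, Tex33 and Tex45. Tex26 had 593 bp in Znhit1-CKO and 1039 bp in control over its start, with the upstream edges 17 bp apart and the downstream edge at 407 bp in Znhit1-CKO against 870 bp in control. Tex33 had the strongest narrowing of any kept Tex gene, to 357 bp in Znhit1-CKO against 840 bp in control, a log2 ratio of -1.23, at its downstream end. None of these 3 genes, Tex26, Tex33 and Tex45, had a differential region at a boundary. At Tex45 the peak, 826 bp in Znhit1-CKO and 1251 bp in control, lay within 1 kb of an end of Pex11g, a peroxisome gene. Tex22 had 1492 bp in Znhit1-CKO and 1767 bp in control, and that peak lay within 1 kb of an end of Pacs2, a sorting-protein gene. No lost Tex peak lay within 1 kb of the end of any other annotated gene.

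**Figure D3:**
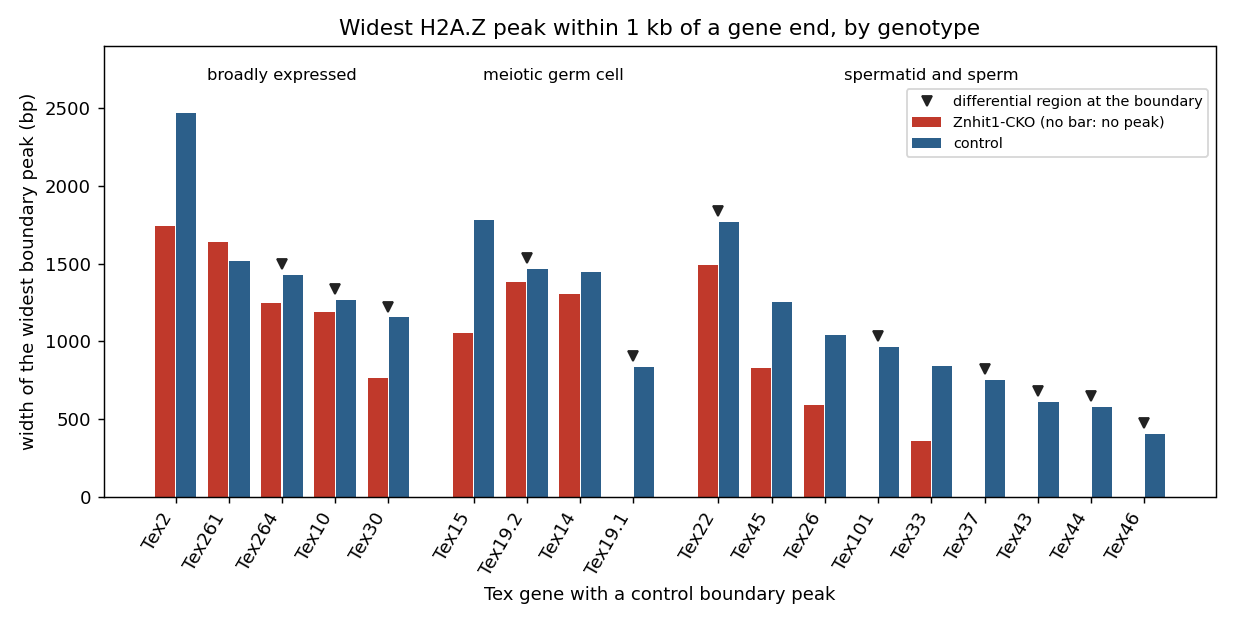
Width in bp of the widest boundary peak at each of the 18 Tex genes with a control boundary peak, Znhit1-CKO in red and control in blue, with a triangle over genes that had a differential region there. The 6 genes without a red bar had control peaks of 406 to 962 bp, and 11 of the 12 others had the narrower peak in Znhit1-CKO.

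Width separated the lost from the kept Tex genes almost without overlap. Control peaks were 406 to 962 bp wide (median 681 bp) at the lost genes and 840 to 2469 bp (median 1439 bp) at the kept ones. Over all protein-coding genes the medians were 714 bp for lost and 1487 bp for kept. With a limit of 1000 bp, chosen after the widths were seen, 6 of the 7 Tex genes with a control peak of at most that width were lost, against 43.7% of all such genes, and Tex33 was the exception. Of the 11 Tex genes with a wider control peak none was lost, against 3.64% of all such genes. The files give no peak height, and the part of peak strength in these losses was not tested.

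At the 12 kept Tex genes the widest boundary peak measured 357 to 1743 bp in Znhit1-CKO (median 1216.5 bp) and 840 to 2469 bp in control (median 1439 bp). It was narrower in Znhit1-CKO at 11 of the 12, where 84.3% of all kept genes had the narrower peak in Znhit1-CKO. The median log2 width ratio was -0.37 at Tex genes and -0.26 at all kept genes. With the start of transcription alone this order turned round, to -0.20 at Tex genes and -0.25 at all. Summed over the 18 genes, peaks covered 12990 bp of the 1 kb windows in Znhit1-CKO and 20168 bp in control, or 64.4%, against 77.1% over all genes with a control boundary peak. By group the Znhit1-CKO coverage was 84.0% of control at the 5 broadly expressed genes, 66.0% at the 4 meiotic ones and 42.7% at the 9 of spermatids and sperm. All these sums take in the lost genes, which add control bases and 0 bp in Znhit1-CKO. Lost genes were 0 of the 5, 1 of the 4 and 5 of the 9, so the coverage shares in part restate the losses. At the kept genes alone the median log2 width ratios of the 3 groups were -0.20, -0.15 and -0.70 (n = 5, 3 and 4). The groups were drawn up with earlier results of these data known, so these shares describe the genes and no more.

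The side on which a peak narrowed varied from gene to gene. At 9 Tex genes 1 peak of each list overlapped at the 5′ end, and the upstream edge was drawn in at 6 of them in Znhit1-CKO and the downstream edge at 7. The same held for 76.2% and 75.6% of 8447 protein-coding genes. The median shift of the Tex edges was 40 bp upstream and 101 bp downstream, against 85 bp and 84 bp over all these genes. Tex2 stood out on the upstream side with 639 bp, and Tex26 and Tex30 on the downstream side with 463 and 352 bp. Tex45 shifted by 467 bp downstream, but its peak lay 3102 bp in Znhit1-CKO and 2635 bp in control from its RefSeq start and near Pex11g, so those are not edges at an annotated start.

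Differential regions at the lost starts of Tex19.1 and Tex101 were centred upstream of the 5′ end, and those at 4 kept starts downstream. The centres were at -181.5 bp at Tex19.1 and at -343.5 bp at Tex101. The region near Tex46 was centred at -1038.5 bp from the end of its gene model, but 4185 bp from its RefSeq start, so it is not at a start. At the kept genes they were centred at 212.5 bp at Tex10, 262.5 bp at Tex30, 276.5 bp at Tex264 and 350.5 bp at Tex19.2. Over all protein-coding genes with 1 such region at the 5′ end, the centre was downstream at 79.0% of lost and 74.6% of kept genes, with medians of 188.5 and 159.5 bp. Tex19.1 and Tex101 thus lay with the smaller share of lost genes, in a set of only 2.

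Promoters could be set beside these outcomes for 27 of the 32 genes, which had an entry in the RefSeq promoter table. Broadly expressed Tex genes had 17 to 41 CpG dinucleotides in 300 bases (median 25.5, n = 6), and spermatid and sperm genes 0 to 19 (median 3, n = 15), counted in the first promoter listed for each gene. By outcome the medians were 4 for 5 lost genes, 20.5 for 10 kept genes and 3 for 12 genes with no boundary peak. Outcome here is that of the gene ends. The kept Tex33 and Tex45 had no peak over the promoter, and Tex9, classed as without a boundary peak, had one in both lists. The medians over the promoters of all protein-coding genes were 8 for lost, 20 for kept and 3 for genes with no boundary peak. The lost genes with a control peak over the start, Tex101 and Tex19.1, had 19 and 16, and Tex101 had the most of any spermatid or sperm gene. Tex19.2 kept its peak with 2 CpG dinucleotides, as the sequences above show, so CpG number did not order this pair.

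**Figure D4:**
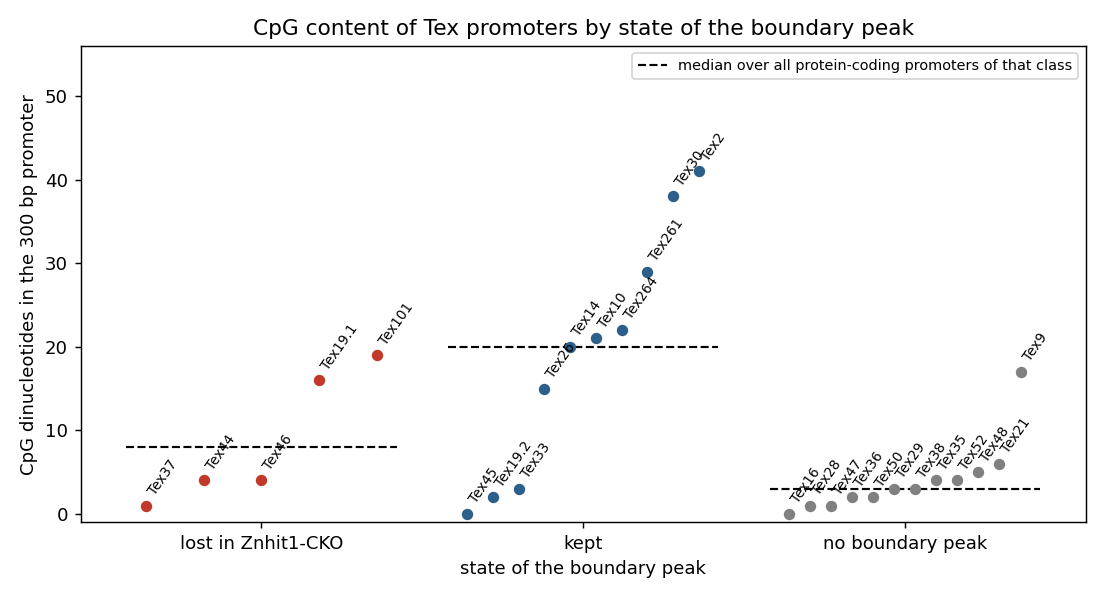
Number of CpG dinucleotides in the first-listed 300-base RefSeq promoter of 27 Tex genes on the vertical axis, with genes arranged by the state of the boundary peak on the horizontal axis, and dashed lines at the medians over all protein-coding promoters of the same state. Tex2 holds 41 and Tex30 holds 38, while Tex19.2 holds 2 among the kept genes and Tex101 holds 19 among the lost ones.

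Short motifs were searched on both strands in the same windows. Tex counts are of genes, by the first promoter listed, while the general shares are of 21263 promoters of 17492 genes. Of the 5 lost genes with an entry, only Tex19.1 and Tex101 had a control peak over the promoter. The kept Tex33 and Tex45 had no peak over the promoter in either list. The GC box GGGCGG was in 8 of the 27 Tex promoters, against 46.2% of all protein-coding promoters, and 7 of those 8 were of kept genes, Tex101 being the other. That is 7 of 10 kept Tex genes, where 63.2% of the promoters of all kept genes held one, so the Tex share lay near the general one. The sequence GCGGGA, which can overlap a GC box, was in 8, against 25.8%, among them the Tex19.1 promoter. The MYB core AACNG was in 23, against 79.1%. The CCAAT box was in 9, against 38.2%, and the Tex101 promoter held 4 copies. The TATA box TATAAA was in 3, against 12.6%, among them Tex19.1, and the E-box CACGTG in 2, against 7.84%. The cyclic AMP response element TGACGTCA was in none, against 2.23%, and its core TGACG, which every full element contains, was in 4, against 23.6%. A match describes letters in the window and is not a binding site.

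Counted at the RefSeq transcription starts instead of the gene ends, 11 of the 27 Tex genes had a control peak within 1 kb (40.7%), against 67.7% of all protein-coding genes with an entry. Of these 11, Tex19.1 and Tex101 had no Znhit1-CKO peak there (18.2%), against 9.68% of all such genes. The other losses therefore do not sit at an annotated start, with no start entry used for Tex43.

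The 14 Tex genes with no control boundary peak were genes of spermatids and sperm in 9 cases, 4 genes with no role assigned here, and Tex9. They were Tex9, Tex16, Tex21, Tex24, Tex28, Tex29, Tex35, Tex36, Tex38, Tex47, Tex48, Tex50, Tex52 and Tex55, with Tex16 and Tex28 on the X chromosome. The nearest control peak lay just outside the window at Tex38 (1122 bp), Tex16 (1159 bp) and Tex21 (1311 bp), and 59075 bp away at Tex29, the farthest. The most distant peak still inside the window was that of Tex46, 764 bp from its gene end.

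Within the gene models, away from every protein-coding gene end, Tex genes held 17 Znhit1-CKO peaks and 15 control peaks. These counts take in the overlapping pair at Tex9, which lies over its RefSeq promoter. Of the control peaks, 5 had no overlapping Znhit1-CKO peak (33.3%), against 61.1% of all such control peaks in protein-coding genes. Tex14 alone decided that gap: without it, a check added after the values were seen, 5 of 8 control peaks had no overlap (62.5%). Those 5 were in Tex26, Tex37 and Tex52, each with a differential region, and in Tex45, which held a pair of them without one. Of the Znhit1-CKO peaks, 7 overlapped no control peak (41.2%, against 29.3% of all such Znhit1-CKO peaks), 3 of them in Tex14 and 1 each in Tex26, Tex33, Tex36 and Tex55. Without Tex14 it was 4 of 7 Znhit1-CKO peaks (57.1%), a small count.

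Tex14 held most of these inner peaks, 10 in Znhit1-CKO and 7 in control, and each of the 7 control peaks was overlapped by a Znhit1-CKO peak. Of these 7, 6 lay within 1 kb of a gene annotated as small nuclear RNA, the U1 gene Rnu1a1, Gm22068 or the U3 genes Rnu3b1, Rnu3b2, Rnu3b3 and Rnu3b4. Such genes have near-identical copies, and the treatment of reads with several placements is unstated, so peaks there are uncertain. The widest inner peak away from those genes was 1166 bp in Znhit1-CKO (chr11:87467614-87468779) and 1052 bp in control (chr11:87467501-87468552). A peak of 458 bp in Znhit1-CKO (chr11:87524395-87524852) overlapped no control peak and carried the only differential region of Tex14.

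**Figure D5:**
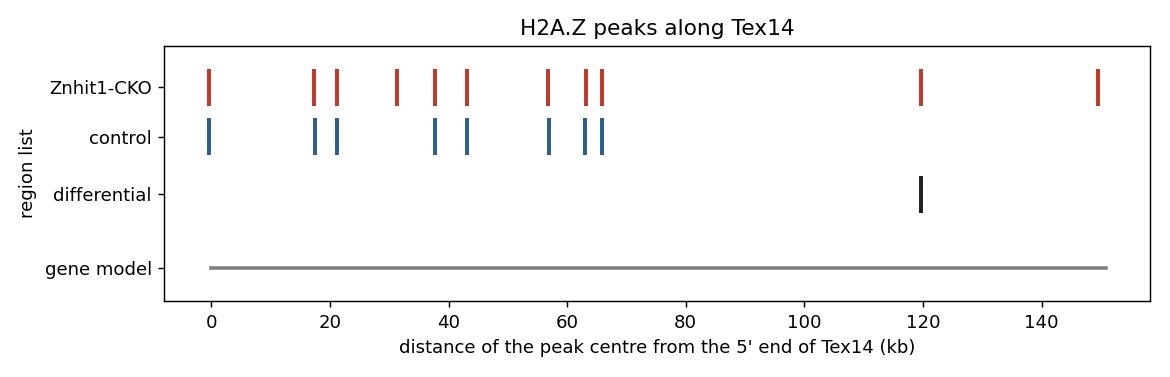
Centres of Znhit1-CKO peaks (red), control peaks (blue) and differential regions (black) along Tex14, as distance from the 5′ end of the gene in kb, above the gene model (grey). All 8 control peaks have a Znhit1-CKO counterpart, and 3 of the 11 Znhit1-CKO peaks have no control counterpart.

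Genes whose proteins act with a Tex protein were taken as a list of 20, drawn up with earlier results of these data known. Of these, 12 had a Znhit1-CKO and 19 a control boundary peak. Of the 19, 7 were lost (36.8%, against 11.5% of all genes given above). The widest control peaks of the 7 were 449 to 1356 bp wide, at most 1000 bp at all but Dpep3. Of all genes with control peaks of at most 1000 bp, 43.7% were lost. The bridge genes Cep55, Kif23 and Racgap1, whose proteins act with TEX14, all kept a peak, as Tex14 did. At Cep55 it was 1586 bp wide in Znhit1-CKO and 2200 bp in control. Spocd1 (665 bp in control), Piwil4 (449 bp) and Dnmt3l (898 bp), which like Tex15 serve the methylation of transposons guided by piRNAs, were all lost, while Tex15 was kept. The Dnmt3l control peak was still overlapped by a Znhit1-CKO peak that lay beyond the window.

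The sperm-surface genes Ly6k (993 bp in control), Dpep3 (1356 bp) and Adam3 (905 bp), whose proteins associate with or depend on TEX101, were lost, as Tex101 was. Each had a differential region, as did 6 of the 7 lost genes of this list and 58.6% of all lost protein-coding genes. No lost peak of this list was placed relative to a transcription start, and the strand of Spocd1, Ly6k and Adam3 was not known. Of the genes that act with Tex10 in ribosome maturation, Pelp1, Wdr18 and Senp3 kept a peak and the X-linked Las1l (widest control peak 577 bp) lost it. Ubr2, whose protein binds TEX19.1, kept a peak, at its widest 1382 bp in Znhit1-CKO and 1508 bp in control, unlike Tex19.1. The autophagy genes Map1lc3b, Gabarap and Vcp and the coat genes Sec23a and Sec24a also kept theirs, the common outcome in the annotation. Zdhhc19, whose enzyme acts with TEX38, had no boundary peak, like Tex38.

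Spata genes, a family likewise named for a role in spermatogenesis and not for a shared protein, lost fewer peaks. Of 24 Spata genes, 15 had a Znhit1-CKO and 16 a control boundary peak, and 1 was lost (6.25%), against 6 of 18 Tex genes. It was Spata22, a meiotic recombination gene, whose control peak was 469 bp wide and had no differential region. Regions called differential touched 10 of the 16 Spata genes (62.5%), against 11 of 18 Tex genes. Spata peaks covered 90.7% as many window bases in Znhit1-CKO as in control, against 64.4% at Tex genes, with the lost genes in both sums. The lists were chosen by name and not at random, and the difference between them was not tested.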

How the data were processed

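H2A.Z ChIP-seq regions of mouse testis cells were used. Per the submitters' processing notes, the build was mm10 and the tools included MACS2 2.2.4, BWA 0.7.17, cutadapt 2.5, Picard 2.20.7 and SAMtools 1.9. The peak threshold, any pooling of replicates and the threshold of a differential region are unstated in those notes. The differential list's own name credits edgeR, used by the authors. The deposited files give chromosome, start and end, counted from 0 at the start and converted here to count from 1. With no score per region, widths and covered bases stand in for signal, and differences between the peak lists carry no test.

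Genes were the 21900 protein-coding entries of the RefSeq table for GRCm38.p6, and strand and promoters came from its promoter table, which had 17492 of them. A gene was classed by regions sharing at least 1 bp with windows of 1000 bp on each side of either end, and every Tex gene may be named. Role groups follow textbook knowledge. The members and lists were chosen with earlier results of these data known. Classes were checked against bedtools 2.31.1, with 0 differing sets among 65661 gene and list combinations, and tested on simulated data. Software was matplotlib 3.10.9, scipy 1.17.1, pandas 2.3.3, numpy 2.4.6 and Python 3.11.15. Alternatives were other windows, other definitions of loss, a minimum width, starts alone and wider symbols.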

Additional observations from a re-analysis of the deposited data

How the results depend on the processing

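No paired analysis was possible because each genotype has 1 peak list without values for single replicates, so none could be left out either. Over the alternatives, 28 of 30 values stayed within the tolerance set for them (counts within 1.5 times, width ratios within 0.1, coverage within 1.1 times, shares within the exact binomial 95% interval, which for the lost share runs from 13.3 to 59.0% and so is a weak check). The share of Tex genes lost ran from 18.2% to 40.0%, and the lowest, at RefSeq starts, is more than 1.5 times below the 33.3% reported. It was 29.4% with a 500 bp window, 31.8% with 2 kb, 38.9% where a Znhit1-CKO peak had to cover 50% of the control peak, which Tex33 did not meet, and 35.3% with peaks of at least 500 bp. Over all protein-coding genes the same 4 settings gave 12.2%, 11.4%, 23.3% and 14.5%. Loss together with a differential region was 33.3% at Tex genes and 6.77% at all. Counting starts of transcription alone moved the median log2 width ratio to -0.20 and the Znhit1-CKO coverage to 72.6% of control, with 12 genes left. Over all protein-coding genes that setting gave -0.25 and 79.1%, so at starts the Tex median narrowed less than the general one. The lost share with starts alone was 25.0% at Tex genes and 10.8% at all. The values at RefSeq starts (18.2%) and without peaks within 1 kb of another protein-coding gene's end (40.0%) were chosen after seeing the data. The second setting did not screen noncoding genes and was not run over all protein-coding genes, so no general share stands beside its 40.0%. Admitting symbols with a letter after the number added 5 X-linked Tex13 genes, all without a boundary peak. Every value is taken over genes with a control boundary peak, so those of this setting could not move, though they count among the 28. Summed widths, also among the 28, could differ from the widest peak only at Tex2. Depth and peak height are unknown, so the certainty of single peaks could not be ranked.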
